A study of Mus musculus with 6 samples.

Results

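The 44 genes described here encode the proteins that copy DNA in S phase and the enzymes that make its building blocks. They were taken as a list of gene names covering origin loading, the replicative helicase, the polymerases and their clamp, the joining of new strands, deoxynucleotide supply, histone deposition and the E2F factors E2f1 and E2f2. Names were matched to Ensembl identifiers on GRCm38, and all 44 were found among the 47729 genes counted. All 44 were also among the 15780 genes with enough counts to test.

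Mouse spleen CD4 T cells were sorted and their RNA sequenced, with 2 samples in each of 3 groups. OFF cells were immature naive CD3+CD4+CD25-CD45RBint cells of RBPJind mice that drank water with doxycycline (Dox) for 3 weeks and then had none for 1 week, while the cells matured in the periphery; the submitters call them Notch unresponsive. ON cells came through the same gate from RBPJind mice given Dox for 4 weeks, and are called Notch responsive. WT cells were mature CD3+CD4+CD25-CD45RBhi cells of wild type mice, which also carry the label Dox, with no duration given. Notch receptors change transcription by way of the DNA-bound factor RBPJ, and RBPJind mice are induced with Dox. The sources used here give neither the promoter and cell type of that induction nor the age of the mice, nor whether replicates are separate animals. OFF and ON share genotype and gate, while WT differs from both in genotype and gate at once, so that these cannot be told apart. With 2 samples a group, p-values measure the spread between samples, which may be technical.

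As background, replication is prepared in G1, when the origin recognition complex with Cdc6 and Cdt1 loads the ring of Mcm2 to Mcm7 onto DNA. Cdc45 and the GINS proteins then switch the ring on as a helicase, polymerase alpha with its primase starts new strands, and polymerases delta and epsilon extend them on the Pcna clamp. Many of these genes are targets of E2F factors. Resting naive T cells have left the cell cycle and raise these genes when they are activated.

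Counts assigned to genes ranged from 17025551 to 19319183 per library. Levels are TMM-scaled CPM, counts scaled to a common library size. Rbpj stood at 29.8 and 31.7 CPM in OFF, 98.2 and 79.6 CPM in ON, and 36.1 and 35.3 CPM in WT. Cd4 was between 604 and 702 CPM in the 6 libraries. Within every group the 2 libraries differed beyond sampling noise, most in ON (chi-square per degree of freedom 17.8 in OFF, 56.5 in ON and 8.17 in WT).

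Most replication genes were higher in both RBPJind groups than in WT. None was called different between OFF and ON, where 1.03% of all tested genes were called. In ON 28 of the 44 rose against WT and none fell, where 9.68% of all tested genes were called higher and 5.16% lower. In OFF 12 of the 44 rose against WT and none fell, where 4.70% of all tested genes were called higher and 2.14% lower. All 12 were among the 28. A call is an adjusted p under 0.05 in edgeR's quasi-likelihood test with Benjamini-Hochberg adjustment over all 15780 genes. The median log2 fold change of the 44 was 0.75 for OFF against WT and 0.93 for ON against WT, beside medians over all tested genes of 0.01 and -0.02. Both comparisons share the WT libraries, so their values are set side by side and not counted as separate evidence.

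The summed level of the 44 genes was 1371 and 1678 CPM in OFF, 2052 and 1543 CPM in ON and 1009 and 999 CPM in WT. Every OFF and ON library was above both WT libraries, and the OFF and ON ranges overlapped. ON 1 was the highest of the 6 libraries for 37 of the 44 genes, and a WT library was the lowest for 42. Both OFF libraries lay above both WT libraries for 36 genes and both ON libraries for 40, where 29.8% of all genes did so in either comparison. In bulk samples more cells in cycle and more of these RNAs per cell cannot be told apart.

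**Figure D1:**
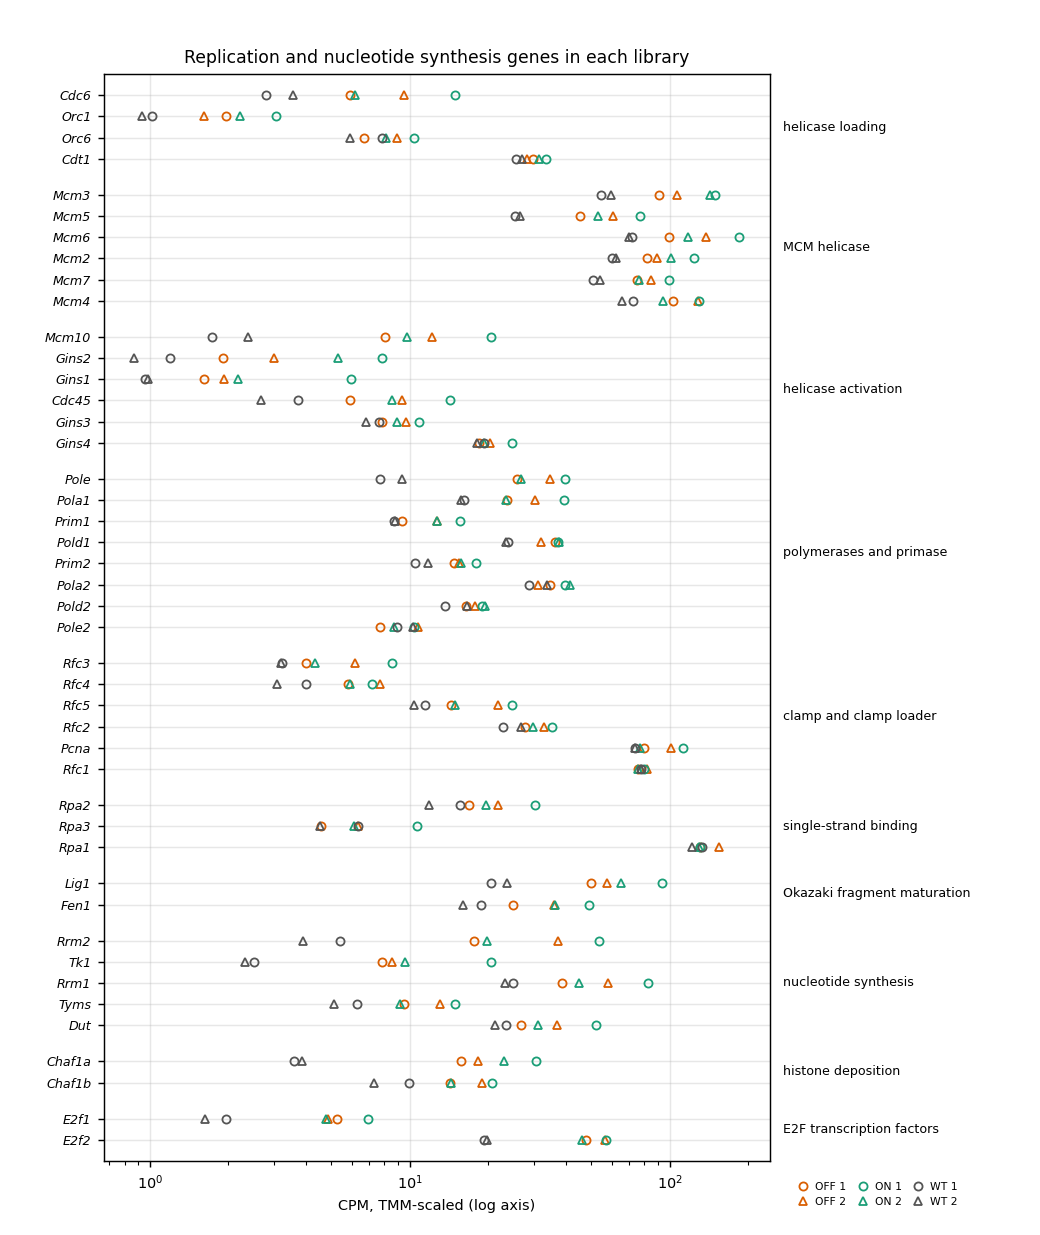
Level of each of the 44 genes in each library, in TMM-scaled CPM on a log axis, with circles for replicate 1 and triangles for replicate 2 of OFF, ON and WT. WT points lie to the left for most genes, while for Rfc1, Rpa1 and Pole2 the 3 groups lie on top of each other.

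Both E2F factors rose in both RBPJind groups. E2f2, a transcription factor that activates S phase genes, was at 47.7 and 56.4 CPM in OFF, 56.9 and 46.1 CPM in ON, and 19.3 and 19.8 CPM in WT. The OFF and ON libraries lay together and far above WT, with a 2.66-fold rise in OFF (adjusted p = 0.00111) and a 2.63-fold rise in ON (7.00e-04). E2f1, the other activator, was less abundant, at 5.26 and 4.87 CPM in OFF, 6.900 and 4.76 CPM in ON, and 1.97 and 1.63 CPM in WT. It rose 2.81-fold in OFF (adjusted p = 0.0292) and 3.23-fold in ON (0.00865), and both OFF libraries lay between the ON libraries. Neither factor was called between OFF and ON (log2 fold change -0.20 ± 0.27 for E2f1 and 0.02 ± 0.15 for E2f2, where ± gives the SE). In the paragraphs that follow, folds are against WT and a value in brackets after one is its adjusted p.

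Of the 44 genes 37 had a promoter entry in RefSeq on GRCm38.p6, covering 250 bases before to 50 bases after the start. Of these 37, 14 held at least 1 of the E2F letters TTTCCCGC, TTTCGCGC, TTTGCCGC or TTTGGCGC on either strand, which is 37.8%, against 2.6% of 27025 genes with an entry. The letters stood in 10 of the 23 genes called higher in ON and in 4 of the 14 that were not called. CCAAT, on either strand, stood in 62.2% of the 37 and in 41.1% of all genes. A match describes the letters in this window and is not a measured binding site. The 4 promoters below are shown because the genes carry the contrasts of the following paragraphs: Mcm3 and Mcm6 rose in ON and hold the E2F letters, Pole2 holds them and was not called, and Rrm2 had the largest rise in ON and holds none. Capitals mark the E2F letters, which overlap at 1 place in Mcm6, and in Rrm2 they mark CCAAT. Bases just after the start were found in 0 GENCODE M21 transcripts of Mcm6, 1 of Mcm3, 2 of Pole2 and 1 of Rrm2. The start used for Mcm6 is therefore less certain.
Mcm3 (GRCm38.p6, chr1:20820263-20820562, minus strand): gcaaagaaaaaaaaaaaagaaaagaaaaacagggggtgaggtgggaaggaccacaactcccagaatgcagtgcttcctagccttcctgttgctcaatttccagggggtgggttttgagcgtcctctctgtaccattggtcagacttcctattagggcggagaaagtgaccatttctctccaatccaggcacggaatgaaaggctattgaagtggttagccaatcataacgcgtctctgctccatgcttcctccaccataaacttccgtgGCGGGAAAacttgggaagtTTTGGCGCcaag
Mcm6 (GRCm38.p6, chr1:128359656-128359955, minus strand): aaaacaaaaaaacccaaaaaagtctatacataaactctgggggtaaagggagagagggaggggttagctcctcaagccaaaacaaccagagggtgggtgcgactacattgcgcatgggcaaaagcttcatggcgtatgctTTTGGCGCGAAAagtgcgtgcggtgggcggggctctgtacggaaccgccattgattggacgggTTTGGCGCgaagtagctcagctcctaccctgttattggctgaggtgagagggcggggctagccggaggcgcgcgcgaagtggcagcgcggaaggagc
Pole2 (GRCm38.p6, chr12:69228141-69228440, minus strand): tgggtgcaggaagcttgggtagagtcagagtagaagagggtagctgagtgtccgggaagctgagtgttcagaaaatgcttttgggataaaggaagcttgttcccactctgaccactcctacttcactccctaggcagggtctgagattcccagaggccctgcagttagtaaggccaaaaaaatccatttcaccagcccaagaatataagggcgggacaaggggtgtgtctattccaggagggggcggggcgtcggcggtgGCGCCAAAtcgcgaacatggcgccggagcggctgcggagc
Rrm2 (GRCm38.p6, chr12:24708004-24708303, plus strand): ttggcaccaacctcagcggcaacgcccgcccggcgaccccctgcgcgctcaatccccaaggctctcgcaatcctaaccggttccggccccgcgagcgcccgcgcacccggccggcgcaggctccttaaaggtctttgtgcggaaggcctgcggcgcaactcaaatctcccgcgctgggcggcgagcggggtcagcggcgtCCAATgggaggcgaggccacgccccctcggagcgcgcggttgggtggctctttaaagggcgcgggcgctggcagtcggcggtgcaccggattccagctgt

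Of the genes that load the helicase, 2 of 4 rose in ON and none was called in OFF. Cdc6, which with the origin recognition complex recruits the ring, was at 5.89 and 9.55 CPM in OFF, 14.9 and 6.15 CPM in ON, and 2.81 and 3.55 CPM in WT, and rose 3.298-fold in ON (adjusted p = 0.0354). Orc1, the largest subunit of that complex, was the least abundant of the 44, at 1.96 and 1.62 CPM in OFF, 3.07 and 2.23 CPM in ON, and 1.02 and 0.930 CPM in WT, and rose 2.71-fold in ON (0.0354). For both the OFF libraries lay above WT without a call (adjusted p = 0.152 for Cdc6 and 0.263 for Orc1). Cdt1, the other loading factor, was at 29.8 and 28.3 CPM in OFF, 33.3 and 31.5 CPM in ON, and 25.6 and 27.04 CPM in WT, with small steps between groups that did not overlap (log2 fold change 0.14 ± 0.13 in OFF and 0.30 ± 0.13 in ON, not called). Orc6, a small subunit of the complex, had log2 fold changes of 0.19 in OFF and 0.44 in ON and was not called.

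All 6 genes of the Mcm2 to Mcm7 ring rose in ON, and 4 rose in OFF. Mcm3 had the smallest p of the ring, at 91.04 and 107 CPM in OFF, 149 and 144 CPM in ON, and 54.4 and 59.5 CPM in WT. Its 3 groups did not overlap, with ON above OFF and OFF above WT. It rose 1.74-fold in OFF (adjusted p = 0.00684) and 2.57-fold in ON (2.90e-04). Mcm6, whose promoter is shown above, was the most abundant of the ring by CPM, at 99.8 and 138 CPM in OFF, 186 and 118 CPM in ON, and 71.7 and 69.9 CPM in WT, and its OFF 2 library lay above ON 2. Mcm6 rose 2.14-fold in ON (0.0126), and in OFF the difference was not called (1.68-fold, 0.0796).
Mcm5 was at 45.1 and 60.3 CPM in OFF, 77.2 and 52.98 CPM in ON, and 25.5 and 26.5 CPM in WT, and rose 2.03-fold in OFF (0.0192) and 2.503-fold in ON (0.00354). Mcm2 was at 81.9 and 89.5 CPM in OFF, 124 and 102 CPM in ON, and 59.9 and 62.3 CPM in WT, with 3 groups that did not overlap. It rose 1.84-fold in ON (0.00325) and was not called in OFF (0.0575). The smallest rises in ON were those of Mcm4 and Mcm7. Mcm4 was at 103 and 129 CPM in OFF, 129.5 and 94.6 CPM in ON, and 72.2 and 65.6 CPM in WT, and rose 1.68-fold in OFF (0.0328) and 1.63-fold in ON (0.0252). Mcm7 was at 75.2 and 84.5 CPM in OFF, 99.1 and 76.2 CPM in ON, and 50.96 and 53.8 CPM in WT, and rose 1.52-fold in OFF (0.0407) and 1.67-fold in ON (0.0111). Per kilobase of exon, 3 genes of the ring were among the highest levels of the 44: in ON, Mcm3 had 39.00 CPM per kb, Mcm6 32.5 and Mcm4 31.2, beside 39.5 for Pcna, the highest of all.

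Of the 6 genes that turn the ring into a working helicase, 4 rose in ON and 1 in OFF. Mcm10, which joins the helicase at the start of unwinding, was at 8.03 and 12.1 CPM in OFF, 20.5 and 9.76 CPM in ON, and 1.73 and 2.38 CPM in WT. Its OFF and ON libraries overlapped and all lay above WT, with a 4.87-fold rise in OFF (0.0199) and a 7.303-fold rise in ON (0.00371). Cdc45, a helicase subunit, was at 5.89 and 9.37 CPM in OFF, 14.3 and 8.52 CPM in ON, and 3.71 and 2.67 CPM in WT, and rose 3.56-fold in ON (0.00898) and was not called in OFF (0.0726).
Of the 4 GINS subunits 2 rose in ON and none in OFF. Gins2 was at 1.91 and 3.005 CPM in OFF, 7.82 and 5.303 CPM in ON, and 1.196 and 0.872 CPM in WT, and rose 6.31-fold in ON (0.00293). Gins1 was at 1.62 and 1.92 CPM in OFF, 5.93 and 2.18 CPM in ON, and 0.957 and 0.988 CPM in WT, and rose 4.13-fold in ON (0.0326), where ON 1 was far above ON 2. Gins3 and Gins4 belong to the same complex and were not called (log2 fold change in ON 0.45 ± 0.21 and 0.24 ± 0.17). Gins4, the most abundant of the 4 by CPM, was at 18.5 and 20.4 CPM in OFF, 24.7 and 19.4 CPM in ON, and 19.3 and 18.1 CPM in WT, so that its ON 2 library lay beside WT 1. Gins2 shares 67.3% of its exon bases with Gse1 on the opposite strand, and the strand setting of the counts is not given, so its level is uncertain.

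Among polymerases the largest difference was in the catalytic subunit of polymerase epsilon. Pole, which copies the leading strand, was at 25.9 and 34.8 CPM in OFF, 39.6 and 26.7 CPM in ON, and 7.72 and 9.36 CPM in WT. The lowest OFF or ON library was well above the highest WT library, and Pole rose 3.55-fold in OFF (0.00257) and 3.88-fold in ON (0.00113). Pole2, the accessory subunit of the same enzyme, was at 7.68 and 10.8 CPM in OFF, 10.4 and 8.67 CPM in ON, and 8.91 and 10.3 CPM in WT, with all 3 groups overlapping (log2 fold change -0.06 ± 0.23 in OFF and -0.01 ± 0.22 in ON). Whether the changes of Pole and Pole2 differ from each other was not tested.
Pold1, the catalytic subunit of polymerase delta, was at 36.1 and 31.9 CPM in OFF, 37.2 and 37.6 CPM in ON, and 23.9 and 23.5 CPM in WT, and rose 1.43-fold in OFF (0.0483) and 1.57-fold in ON (0.0117). Pola1, the catalytic subunit of polymerase alpha, was at 23.6 and 30.4 CPM in OFF, 39.3 and 23.5 CPM in ON, and 16.2 and 15.8 CPM in WT, and rose 1.96-fold in ON (0.0259). The primase subunit gene Prim2 was at 14.8 and 15.5 CPM in OFF, 17.99 and 15.8 CPM in ON, and 10.5 and 11.8 CPM in WT, and rose 1.52-fold in ON (0.0409). Pola2, Prim1 and Pold2 were not called in either comparison in the main model. Their log2 fold changes in ON were 0.37, 0.71 and 0.33 (adjusted p = 0.0995, 0.0512 and 0.196). Prim1 was called higher in ON with only the ON and WT libraries fitted. Pola2, the most abundant gene of the group by CPM, was at 34.7 and 31.2 CPM in OFF, 39.5 and 41.5 CPM in ON, and 28.7 and 33.7 CPM in WT.

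No gene of the clamp and its loader was called in any comparison in the main model. Before adjustment in that model, 4 of the 6 were higher in ON at p under 0.05 (66.7%), where 17.1% of all genes were. Rfc5 was called higher in ON by DESeq2 and with only the ON and WT libraries fitted. Pcna, the sliding clamp, was at 79.6 and 101 CPM in OFF, 113 and 76.8 CPM in ON, and 73.4 and 73.6 CPM in WT, where ON 1 and OFF 2 stood above libraries that were otherwise close to WT. Its log2 fold change was 0.30 ± 0.19 in OFF and 0.37 ± 0.19 in ON (adjusted p = 0.395 and 0.214). Rfc1, the large subunit of the loader, was at 75.6 and 81.5 CPM in OFF, 80.1 and 75.5 CPM in ON, and 77.3 and 77.6 CPM in WT, the narrowest spread of the 44, with a log2 fold change of 0.01 ± 0.11 in ON. The smaller subunits had log2 fold changes in ON of 0.39 for Rfc2, 0.99 for Rfc3, 0.88 for Rfc4 and 0.86 for Rfc5. Rfc3 was at 3.99 and 6.19 CPM in OFF, 8.54 and 4.31 CPM in ON, and 3.23 and 3.198 CPM in WT, with ON 1 above the other 5 libraries. Among the loader genes Rfc4 had the smallest p in ON, at 5.78 and 7.69 CPM in OFF, 7.16 and 5.897 CPM in ON, and 4.01 and 3.08 CPM in WT (adjusted p = 0.0587 in ON).

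Of the 3 subunits of RPA, which coats single-stranded DNA in replication and in repair, Rpa2 alone was called, in ON. It was at 16.9 and 21.8 CPM in OFF, 30.4 and 19.7 CPM in ON, and 15.6 and 11.9 CPM in WT and rose 1.82-fold (0.0389). Rpa1, the large subunit and the most abundant of the 44 by CPM, was at 131 and 154 CPM in OFF, 131 and 129 CPM in ON, and 133 and 123 CPM in WT, where ON and WT overlapped and OFF 2 was highest (log2 fold change 0.03 ± 0.12 in ON). Rpa3 was at 4.56 and 6.31 CPM in OFF, 10.6 and 6.095 CPM in ON, and 6.34 and 4.54 CPM in WT, with ON 1 above 5 libraries that lay together.

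Both genes that join the fragments of the lagging strand rose in ON. Lig1, the replicative DNA ligase, was at 50.03 and 57.3 CPM in OFF, 93.8 and 65.3 CPM in ON, and 20.5 and 23.8 CPM in WT, and its 3 groups did not overlap. It rose 2.42-fold in OFF (0.00463) and 3.59-fold in ON (4.17e-04). Fen1, the flap nuclease, was at 24.9 and 35.8 CPM in OFF, 49.1 and 36.3 CPM in ON, and 18.8 and 15.99 CPM in WT, and rose 2.46-fold in ON (0.00478) and was not called in OFF (0.0545). Fen1 shares 84.2% of its exon bases with Tmem258 and Gm10143 on the opposite strand. Tmem258 was between 8.896 and 13.2 CPM and Gm10143 between 0.102 and 0.837 CPM in the 6 libraries. The level of Fen1 is therefore uncertain as well.

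All 5 genes of deoxynucleotide supply rose in ON, and Tk1 alone of them rose in OFF. Rrm2, the S phase subunit of ribonucleotide reductase, was at 17.7 and 37.3 CPM in OFF, 53.7 and 19.8 CPM in ON, and 5.38 and 3.895 CPM in WT. Its rise was the largest of the 44 in ON (7.91-fold, adjusted p = 0.0217), with ON 1 far above ON 2 and OFF 2 far above OFF 1; in OFF it was 5.93-fold higher without a call (0.0560). Rrm1, the large subunit of the enzyme, was at 38.6 and 58.2 CPM in OFF, 82.9 and 45.00 CPM in ON, and 24.9 and 23.2 CPM in WT, and rose 2.66-fold in ON (0.0231).
Tk1, the thymidine kinase of cycling cells, was at 7.86 and 8.53 CPM in OFF, 20.5 and 9.56 CPM in ON, and 2.51 and 2.33 CPM in WT. It rose 3.38-fold in OFF (0.0350) and 6.202-fold in ON (0.00302), and both OFF libraries lay below both ON libraries. Tyms, which makes thymidylate, was at 9.47 and 13.04 CPM in OFF, 14.98 and 9.22 CPM in ON, and 6.28 and 5.12 CPM in WT, and rose 2.12-fold in ON (0.0325). The annotation also holds pseudogene copies, Tyms-ps of Tyms and Pcna-ps1 and Pcna-ps2 of Pcna. Reads could be shared with these, so the levels of Tyms and Pcna are less certain. Pcna-ps1 was counted at up to 0.174 CPM and Pcna-ps2 at up to 0.581 CPM in any library. Dut, which removes dUTP, was at 26.9 and 36.96 CPM in OFF, 52.1 and 31.3 CPM in ON, and 23.6 and 21.2 CPM in WT, and rose 1.86-fold in ON (0.0383).

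Both genes of chromatin assembly factor 1, which places histones on new DNA, rose in ON. Chaf1a, its large subunit, was at 15.8 and 18.3 CPM in OFF, 30.8 and 23.1 CPM in ON, and 3.59 and 3.84 CPM in WT, with 3 groups that did not overlap. It rose 4.58-fold in OFF (6.83e-04) and 7.24-fold in ON (9.09e-05), the smallest p of the 44 in both comparisons. Chaf1a shares 52.5% of its exon bases with Ubxn6 on the opposite strand, which was between 33.02 and 41.7 CPM in the 6 libraries, so the level of Chaf1a is uncertain, as for Gins2. Chaf1b was at 14.3 and 19.05 CPM in OFF, 20.8 and 14.4 CPM in ON, and 9.99 and 7.27 CPM in WT, and rose 2.04-fold in ON (0.0246) and was not called in OFF (0.0542).

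**Figure D2:**
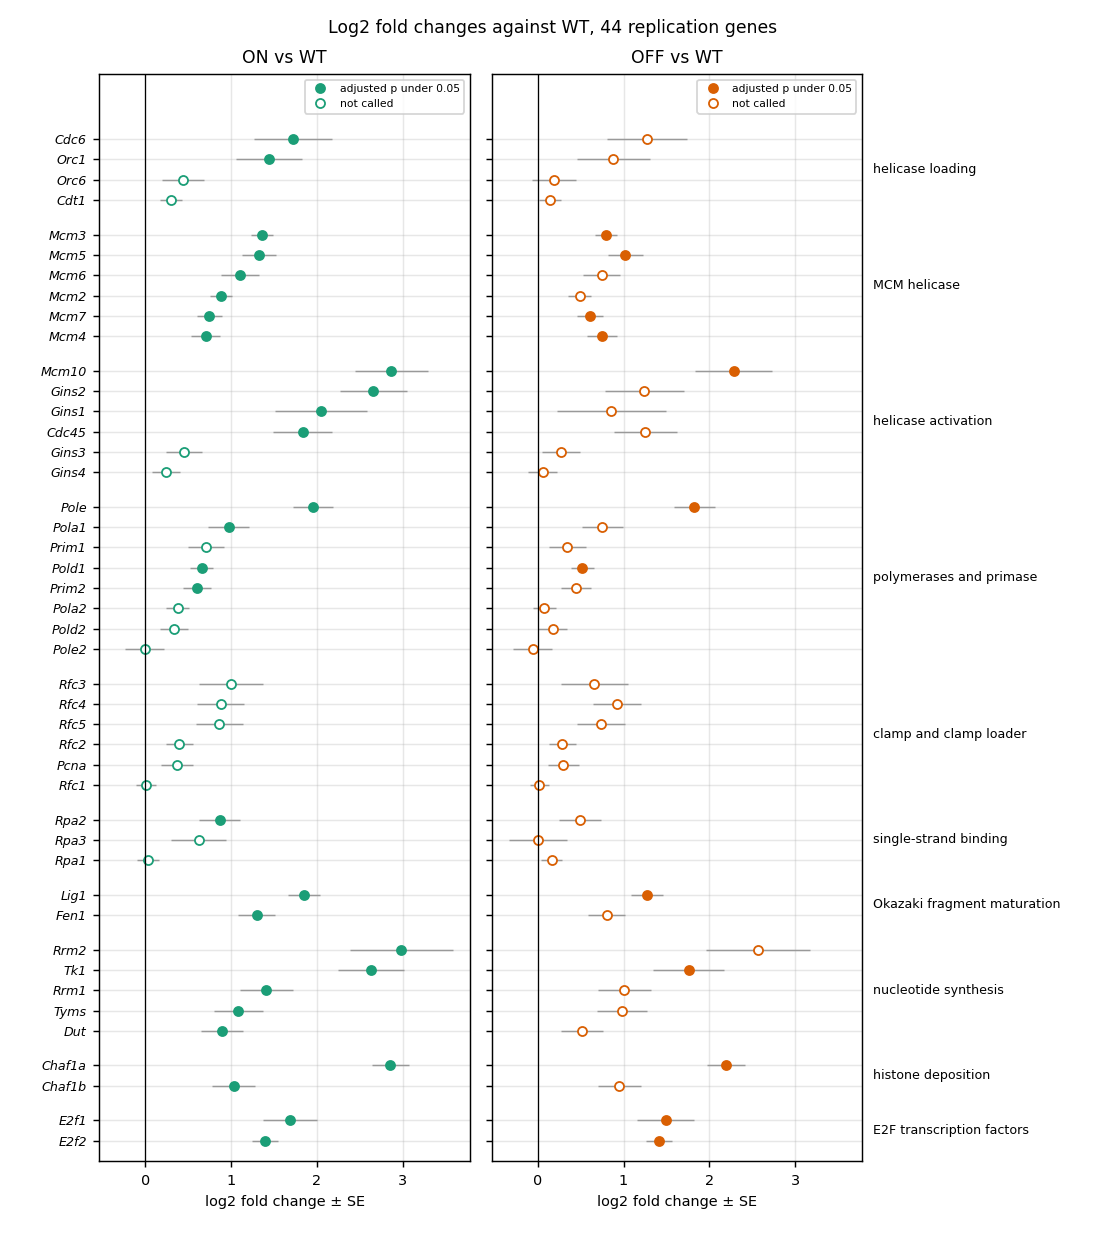
Log2 fold change with its SE for each of the 44 genes, ON against WT on the left and OFF against WT on the right; filled points have an adjusted p under 0.05. In ON 28 points are filled and in OFF 12, and Rrm2, Mcm10 and Chaf1a lie farthest to the right in both.

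Calls of ON against WT differed in how far they rested on 1 library. With each of the 6 libraries left out in turn, 9 of the 28 were called every time: Chaf1a, E2f2, Gins2, Lig1, Mcm2, Mcm3, Mcm5, Pole and Tk1. Of the other 19, the calls of Cdc45 and Fen1 were lost without WT 2, and that of Mcm10 without WT 1. The calls of E2f1, Mcm6, Mcm7, Pold1 and Rrm1 were lost without either WT library. The calls of Chaf1b, Dut, Gins1, Mcm4, Orc1, Pola1, Prim2, Rpa2 and Tyms were lost without either WT library and without ON 1, that of Cdc6 without these and without OFF 2, and that of Rrm2 without either WT or either OFF library (adjusted p up to 0.281). The count of 28 became 18 without ON 1, 11 without WT 1 and 10 without WT 2. At the same threshold, limma-voom did not call Cdc6, Dut, Gins1, Orc1, Rpa2, Rrm2 and Tyms, DESeq2 did not call Orc1 and Prim2, and upper quartile factors lost Prim2 and Rpa2. Without a filter on low counts Cdc6, Dut, Prim2, Rrm1 and Rrm2 were lost, and with only the ON and WT libraries fitted Prim2 was lost. Over all genes, ON against WT had 494 calls without WT 1 and 368 without WT 2, against 2342 with all libraries.

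In OFF against WT, 3 of the 12 calls held with each library left out: Chaf1a, E2f2 and Pole. That of Lig1 was lost without WT 1, that of Mcm3 without either WT library, those of Mcm4, Mcm5, Mcm7 and Mcm10 without either WT library or OFF 2, and those of E2f1, Pold1 and Tk1 without any one of the OFF and WT libraries (adjusted p up to 0.282). The count of 12 fell without WT 1, WT 2 or OFF 2 and rose without either ON library. The count over all tested genes moved the same way. When only the 4 OFF and WT libraries were fitted, the 12 became 20, and the 1078 calls over all genes became 1466. The call of Pold1 was also lost under RLE and upper quartile factors, without a filter, at a mean CPM of at least 1, with protein-coding genes only, with DESeq2, with limma-voom and in that fit of 4 libraries. That of Mcm7 was lost under upper quartile factors, at a mean CPM of at least 1, with protein-coding genes only and with limma-voom. A mean CPM of at least 1 also ended the calls of Mcm4 and Tk1, and limma-voom those of E2f1, Mcm10 and Tk1. No call in either comparison changed direction under the alternatives run.

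OFF and ON differ in the last week of Dox, and the names Notch unresponsive and responsive are the submitters'. Rbpj RNA in OFF was lower than in ON (adjusted p = 0.00195), and against WT its log2 fold change was -0.22 ± 0.14 (adjusted p = 0.422). None of the 44 was called by edgeR or limma-voom, where edgeR called 1.03% of all genes, 0.602% higher and 0.425% lower in OFF. Before adjustment, 8 of the 44 had a p under 0.05 and were lower, and 0 were higher, where 9.96% of all genes were lower and 9.11% higher. These 8 were Mcm3, Gins2, Chaf1a, Lig1, Mcm2, Tk1, Gins1 and Fen1. Most group means ran in 1 direction, with a log2 fold change below 0 for 39 of 44 and a median of -0.27, against 0.001 over all tested genes.
The smallest adjusted p was that of Mcm3 (0.0697, log2 fold change -0.56 ± 0.12), with 91.04 and 107 CPM in OFF, against 149 and 144 CPM in ON. Gins2 was next (0.0718, log2 fold change -1.42 ± 0.33), with 1.91 and 3.005 CPM in OFF, against 7.82 and 5.303 CPM in ON. DESeq2 called both lower (2 of 44 members), where it called 497 of all 15780 tested genes, 254 of them lower. For 14 of the 44 genes both OFF libraries lay below both ON libraries, where 23.3% of all genes did so, and for 1, Rpa1, both lay above, OFF 1 barely so, where 23.4% of all genes did.

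The size of the OFF and ON difference moved with single libraries. ON 1 was above ON 2 for 41 of the 44 genes, with a median log2 difference of 0.47 beside 0.00 over all tested genes. OFF 2 was above OFF 1 for 39 of 44 (median log2 of OFF 1 over OFF 2 -0.35), and the 2 WT libraries were close (median 0.03). Without ON 1 the median log2 fold change of OFF against ON was 0.02, with 23 genes above 0 and 21 below. The lowest of the 21 were then Gins2 at -1.11, Mcm3 at -0.53 and Chaf1a at -0.44. Without ON 2 the median was -0.49, with 1 gene above 0 and 43 below. The lowest of the 43 were Gins1 at -1.75, Gins2 at -1.68 and Tk1 at -1.34. Without OFF 1 the median was -0.12, with 13 genes above 0 and 31 below, and without OFF 2 it was -0.46, with all 44 below. The log2 fold change of Mcm3 was -0.53 without ON 1 and -0.60 without ON 2, with adjusted p = 0.0710 and 0.0873.

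**Figure D3:**
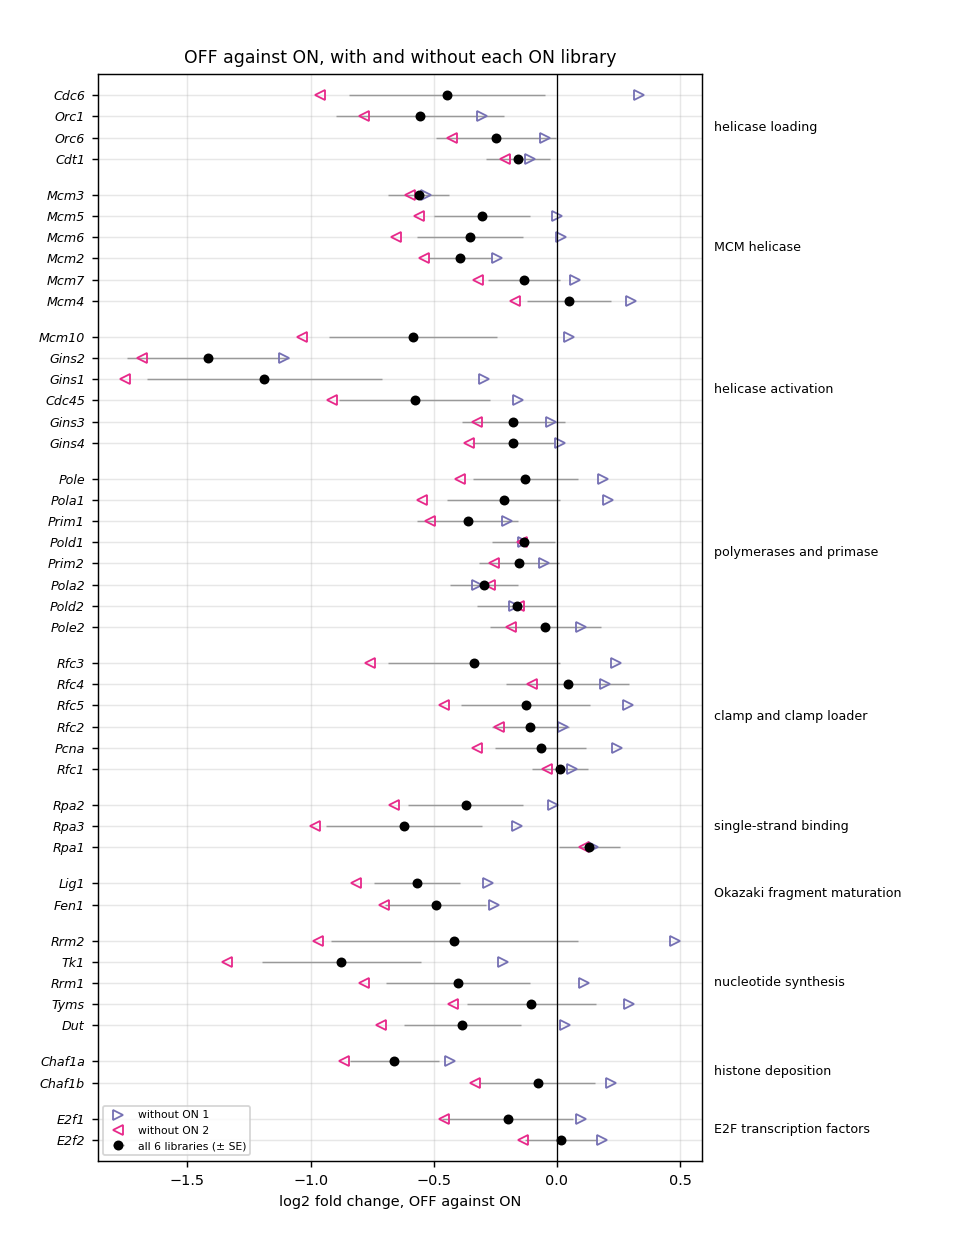
Log2 fold change of OFF against ON for each of the 44 genes: black points with SE for all 6 libraries, right-pointing triangles without ON 1 and left-pointing triangles without ON 2. Most black points lie left of 0, and without ON 1 the genes spread to both sides, with 23 above 0 and 21 below.

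Part of the genes outside the list that act at the fork rose as well. Of 42 other replication and fork genes, 22 rose in ON, 1 fell, and 8 rose in OFF. Over all tested genes 9.68% rose and 5.16% fell in ON, and 4.70% rose in OFF. The medians of log2 fold change of the 42 were 0.59 in ON and 0.33 in OFF. Clspn, which carries the checkpoint signal at the fork, was at 21.7 and 32.6 CPM in OFF, 54.6 and 31.8 CPM in ON, and 4.84 and 5.23 CPM in WT and rose 5.38-fold in OFF (adjusted p = 0.00353) and 8.56-fold in ON (6.52e-04). Uhrf1, which keeps DNA methylation through replication, was at 30.7 and 50.4 CPM in OFF, 71.5 and 38.7 CPM in ON, and 7.42 and 9.13 CPM in WT and rose in both (adjusted p = 0.0160 in OFF and 0.00471 in ON). Mcmbp, which binds MCM subunits, fell in ON, with 99.9 and 98.2 CPM in OFF, 79.02 and 78.99 CPM in ON, and 113 and 114 CPM in WT (log2 fold change -0.52 ± 0.11 against WT, 0.0141). Nasp, a histone chaperone, had the smallest p of this list between OFF and ON, with 64.4 and 62.98 CPM in OFF, 86.9 and 92.1 CPM in ON, and 67.05 and 72.7 CPM in WT (OFF over ON, log2 -0.49 ± 0.12, adjusted p = 0.0739), and was not called.

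Genes of general nucleotide synthesis had median changes near 0. Of 34 tested genes of purine, pyrimidine and folate metabolism outside the 44, 4 rose in ON, among them Shmt2, Mthfd2 and Adss, and Prps2 fell, where 9.68% of all tested genes were called higher. None was called in OFF by edgeR (3, or 8.82%, were higher at an unadjusted p under 0.05, where 12.4% of all genes were), with medians of log2 fold change of 0.06 in ON and 0.11 in OFF. Their summed level was 1712 and 1809 CPM in OFF, 1712 and 1755 CPM in ON and 1652 and 1626 CPM in WT. Mthfd2, a mitochondrial folate enzyme, was at 40.7 and 39.7 CPM in OFF, 53.3 and 49.8 CPM in ON, and 31.8 and 32.3 CPM in WT, and rose 1.61-fold in ON (0.00688). Ctps2, one of the CTP synthases, had the smallest p of the list between OFF and ON, with 66.4 and 67.3 CPM in OFF, 47.5 and 52.1 CPM in ON, and 62.5 and 62.9 CPM in WT (log2 fold change 0.42 ± 0.12, adjusted p = 0.110).

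Of 34 genes of G2 and M phase, all rose in ON and 25 rose in OFF, where 9.68% and 4.70% of all tested genes did. The medians of log2 fold change of the 34 were 3.05 in ON and 2.60 in OFF, beside 0.93 and 0.75 for the 44. Their summed level was 925 and 1524 CPM in OFF, 2156 and 969 CPM in ON and 208 and 172 CPM in WT, in the same order of libraries as the replication genes within OFF and ON. Mki67, a marker of cycling cells, was at 277 and 475 CPM in OFF, 626 and 241 CPM in ON, and 48.8 and 38.4 CPM in WT. None of the 34 was called between OFF and ON by edgeR, where 1.03% of all genes were. At its unadjusted p under 0.05, 2 (5.88%) were lower and 0 higher, where 9.96% and 9.11% of all genes were. All 34 had a log2 fold change below 0 in OFF against ON, with a median of -0.48, beside -0.27 for the 44.

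**Figure D4:**
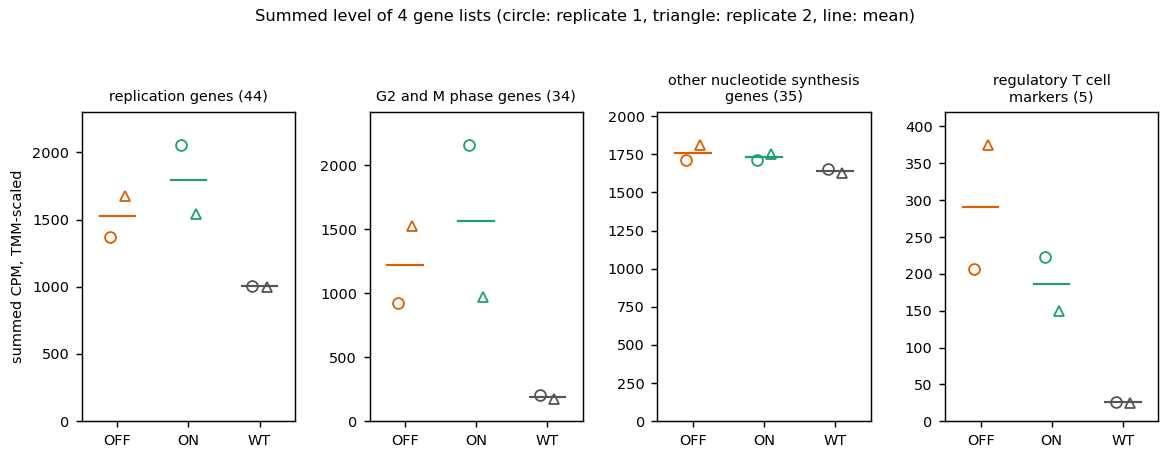
Summed TMM-scaled CPM per library of the 44 replication genes, 34 G2 and M phase genes, 35 other nucleotide synthesis genes and 5 regulatory T cell markers, with a line at each group mean of 2. Replication and G2 and M phase sums put ON 1 highest and OFF 2 next, regulatory T cell markers put OFF 2 highest, and the other nucleotide synthesis sum is nearly level.

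Markers of other T cell states moved along the same comparisons. The sort excluded CD25+ cells. Beside the marker counts here and in the next paragraph, 9.68% of all tested genes rose and 5.16% fell in ON. In OFF 4.70% rose and 2.14% fell. All 5 regulatory T cell markers, 2 of which are also in the activated list, rose in ON and in OFF, with sums of 207 and 374 CPM in OFF, 223 and 149.9 CPM in ON and 26.7 and 24.8 CPM in WT. Foxp3, their defining factor, was at 36.6 and 78.7 CPM in OFF, 38.03 and 30.8 CPM in ON, and 2.45 and 2.67 CPM in WT. Of 9 markers of activated or memory T cells 8 rose in ON and 7 in OFF, with sums of 238 and 357 CPM in OFF, 345 and 298 CPM in ON and 137 and 105 CPM in WT. The 8 naive markers summed to 5301 and 4861 CPM in OFF, 3968 and 4452 CPM in ON and 5435 and 5169 CPM in WT, 3 of them being lower in ON and 1 in OFF. Like the replication sum, the regulatory T cell sum was higher in ON 1 than in ON 2 and in OFF 2 than in OFF 1.
Markers of CD8 T and NK cells summed to 88.9 and 167 CPM in OFF, 318 and 147 CPM in ON and 32.9 and 24.1 CPM in WT, with 3 of 7 rising in each comparison, and most of the OFF and ON sums was Gzmb and Eomes; Cd8a was at 3.06 and 4.09 CPM in OFF, 5.72 and 5.85 CPM in ON, and 0.419 and 1.28 CPM in WT. B cell markers summed to 208 and 250.3 CPM in OFF, 173 and 150.4 CPM in ON and 201 and 186 CPM in WT, mostly Ighm, with 7 of 8 rising in OFF and 4 rising and 1 falling in ON. For cells that cycle in spleen or thymus, the 8 germinal centre B cell and plasmablast markers summed to 21.5 and 27.9 CPM in OFF, 48.1 and 31.8 CPM in ON and 11.4 and 10.2 CPM in WT, with OFF 2 above OFF 1 and ON 1 above ON 2 as in the replication sum. Of the 5 that could be tested, 3 rose in ON (S1pr2, Jchain and Prdm1) and 1 in OFF (Prdm1), and most of the OFF and ON sums was Prdm1 and S1pr2, which T cells can also express. The 7 erythroid markers found summed to 9.13 and 8.17 CPM in OFF, 9.35 and 10.1 CPM in ON and 4.96 and 5.23 CPM in WT, most of which was Gata1, at 8.61 and 6.19 CPM in OFF, 8.74 and 9.02 CPM in ON, and 3.05 and 5.06 CPM in WT; of 2 tested, Gata1 rose in ON (0.0274) and none was called in OFF. The defining erythroid globin gene Hba-a1 was at most 0.661 CPM in any library. The 6 thymocyte markers summed to 35.9 and 32.8 CPM in OFF, 31.1 and 47.3 CPM in ON and 40.2 and 41.2 CPM in WT, with none of 3 tested called against WT, and Ptcra was at 0 in every OFF and ON library. Myeloid and dendritic markers summed to 64.5 and 73.2 CPM in OFF, 54.5 and 64.2 CPM in ON and 20.6 and 19.1 CPM in WT. The part of the source cells of the regulatory, activated, CD8 and NK, B cell, germinal centre, erythroid, thymocyte and myeloid markers in the replication genes' differences was not tested.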

How the data were processed

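RNA-seq of 6 libraries was aligned to GRCm38, per the labels' protocols; edgeR and R 3.6.2 appear in the submitters' processing notes. The deposited table holds raw counts per Ensembl gene; the sources used here do not state the counter, annotation release or strand setting. Its 5 summary rows were left out (reads matching no gene were 17.0 to 27.1% of reads, unaligned reads 9.34 to 24.3%). Of 47729 identifiers, 47224 matched GENCODE M21 names.

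Genes with 10 counts in enough libraries and 15 in all were kept by edgeR's filter, leaving 15780. One edgeR 4.0.16 quasi-likelihood model (R 4.3.3) with TMM factors covered the 3 groups, and p-values were Benjamini-Hochberg adjusted over all genes. SE is the log2 fold change divided by the root of its F. Alternatives used limma 3.58.1, DESeq2 1.42.0, other scalings, filters and thresholds, and libraries left out; the crossed replicate block was chosen after seeing the data. Models were tested on simulated data. There, false calls were 9.97% of calls for OFF against ON, 10.4% for ON against WT and 11.9% for OFF against WT. This is more than the call threshold allows for, so some calls reported here may be false. Of genes simulated with a log2 fold change of 1, 61.4%, 67.7% and 61.4% were recovered, in that order. At a log2 fold change of 2 the shares were 90.4%, 89.5% and 89.9%.

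Members and lists were chosen with earlier results of these data known. Genes named are all called members, the most abundant and smallest-p member of each role, and genes of smallest p in other lists; further members were named after their values were seen, and a few listed genes are not reported here. Depth was 17025551 gene counts or more per library; the least abundant members, such as Orc1 and Gins1, rest on few counts, where counting error is not small.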

Additional observations from a re-analysis of the deposited data

How the results depend on the processing

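Under RLE or upper quartile factors, a mean CPM of at least 1, no filter, protein-coding genes only and the older quasi-likelihood method, the counts of called replication genes stayed within 1.5 times those reported and the medians kept their sign, though single calls ended, such as those of Pold1 and Mcm7 in OFF against WT. For OFF against WT the 12 calls became 19 with DESeq2, 7 with limma-voom, 20 with only the 4 libraries compared and 5 at an adjusted p under 0.01, and leaving out 1 library gave 3 to 22. For ON against WT the 28 became 13 at an adjusted p under 0.01 and 10 to 32 with 1 library left out, with a median log2 fold change of 0.70 to 1.27. For OFF against ON the 0 became 2 with DESeq2, which called 497 of all genes, where edgeR called 162. With 1 library left out the median ran from -0.49 to 0.016, the sign turning without ON 1. The causes were not tested.

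Whether the replicate numbers pair the samples cannot be decided with 2 libraries a group. Deviations of the libraries numbered 1 from their group means correlated at -0.27 (OFF and ON), 0.09 (ON and WT) and -0.25 (OFF and WT). With the replicate block, 0 members were called for OFF against ON, 21 for ON against WT and 9 for OFF against WT. Over all genes 60, 1441 and 663 were called, in that order. With the OFF numbers crossed in the block, chosen after seeing the data, 5, 33 and 26 members were called, beside 1210, 3754 and 2083 of all genes. With 3 residual degrees of freedom, many small differences could go uncalled, and genes under about 2 CPM, such as Orc1 and Gins1, rest on few counts.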

Other observations

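Genes around the G1 to S step and of S phase repair gave a mixed picture. Of 26 G1 to S regulators 9 rose in ON and 4 in OFF, with median log2 fold changes of 0.32 and 0.32. Over all tested genes 9.68% were called higher in ON and 4.70% in OFF. For OFF against ON edgeR called none, where it called 1.03% of all genes. At its unadjusted p under 0.05, 1 (3.85%) was higher and 3 (11.5%) were lower, where 9.11% and 9.96% of all genes were. E2f7, an E2F repressor, was at 6.41 and 8.83 CPM in OFF, 12.9 and 5.501 CPM in ON, and 2.45 and 1.74 CPM in WT, and rose in both (adjusted p = 0.0459 in OFF and 0.0150 in ON). Cdk6, a G1 kinase, was at 60.7 and 62.7 CPM in OFF, 73.5 and 44.5 CPM in ON, and 20.8 and 23.7 CPM in WT, and rose in both (0.00498 in OFF and 0.00375 in ON). E2f4, a mostly repressive E2F, was at 88.6 and 80.2 CPM in OFF, 104 and 113 CPM in ON, and 79.8 and 84.9 CPM in WT, and Rb1, which holds E2F in check, was at 65.7 and 72.95 CPM in OFF, 55.8 and 37.3 CPM in ON, and 51.7 and 54.5 CPM in WT. Neither was called in any comparison.

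Of 20 genes of S phase DNA repair 8 rose in ON and 5 in OFF, where 9.68% and 4.70% of all tested genes did. Their median log2 fold changes were 0.69 and 0.49. For OFF against ON edgeR called none, where it called 1.03% of all genes. At its unadjusted p under 0.05, 2 (10%) were lower, near the 9.96% of all genes that were. Rad54l, which acts in recombination, was at 4.16 and 7.45 CPM in OFF, 10.9 and 6.34 CPM in ON, and 1.32 and 1.16 CPM in WT, and rose in both (adjusted p = 0.0232 in OFF and 0.00378 in ON). Brca1, which acts in the repair of broken DNA, was at 16.5 and 24.3 CPM in OFF, 26.9 and 14.6 CPM in ON, and 7.12 and 6.396 CPM in WT, and rose in both (0.0212 in OFF and 0.0110 in ON). The OFF 2 and ON 1 libraries were again higher than their replicates for the summed level of this list, at 457 and 502 CPM in OFF, 585 and 522 CPM in ON and 403 and 401 CPM in WT.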
